A study of Mus musculus with 9 samples.

Results

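The genes described here are 10 genes of bone morphogenetic protein (BMP) signalling, followed by RNA sequencing in mouse AKP tumour organoids: the inhibitor-of-DNA-binding genes Id1, Id2 and Id3, the ligand genes Bmp2 and Bmp4, the receptor gene Bmpr1a, the decoy receptor gene Bambi, the inhibitory Smad genes Smad6 and Smad7, and the transcription factor gene Atoh8. They were taken by name, through their Ensembl IDs in GENCODE M21; the rule uses no measured value, although the list was drawn up with earlier results of these data known. All 10 were found among the 21253 genes of the count table. Per the labels, Apc is controlled in these AKP organoids by a short hairpin RNA (shAPC) whose effect depends on doxycycline in the medium. Control organoids were kept with doxycycline and had Apc off. The other groups had doxycycline withdrawn, which restores Apc, for 2 days or for 7 days. Each group had 3 samples, which the labels call technical replicates, so the p-values cover the spread among these samples, which may be technical. The sources used here give no strain, sex or age for the source animal.

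BMP ligands are secreted proteins that bind pairs of type I and type II receptors at the cell surface. The receptors phosphorylate Smad1 and Smad5, which join Smad4, enter the nucleus and switch on target genes, of which the Id genes are the best known. Id proteins have a helix-loop-helix domain but no DNA-binding region, and they hold E proteins such as Tcf3 and Tcf12 away from DNA. Smad6, Smad7 and Bambi restrain the pathway and are themselves among its targets. In the intestine BMP signalling is known to be low at the crypt base, where antagonists are made, and high towards the villus or the colon surface.

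The libraries held 24143589 to 32277040 counts, and 12535 genes passed the filter on low counts. Apc, the hairpin's target, averaged 7.49 ± 1.17, 31.6 ± 6.66 and 76.9 ± 13.9 CPM, counts scaled to a common library total (SD, n = 3), in control, 2-day and 7-day samples, in the order the labels imply. The 9 epithelial markers examined each averaged at least 165 CPM in every group, and their summed level was 9936 to 13110 CPM in controls, 14740 to 16860 CPM at 2 days and 27290 to 37220 CPM at 7 days. The sum came mostly from Krt8 (3820, 5360 and 11900 CPM), Krt19 (2760, 4710 and 12200 CPM) and Krt18 (2290, 2380 and 2930 CPM). Vil1 (464, 436 and 1710 CPM) was also higher at 7 days, while Cdh1 (989, 1090 and 1150 CPM) moved little. Cdx2 (171, 178 and 165 CPM) was not higher at 7 days. The part of these differences in the changes below was not tested. Among markers of other cells, 10 of 12 for mesenchyme, 6 of 8 for endothelium and 6 of 8 for immune cells stayed under 1 CPM in every sample, and Lum, Foxl1 and Emcn were among those at 0 counts. Levels below are CPM relative to the TMM-scaled library total, and changes are log2 fold changes (log2FC) ± SE from edgeR's quasi-likelihood test. The threshold for a call was 0.05 for the p adjusted by Benjamini-Hochberg over all tested genes. The comparisons of 2 days and of 7 days with control share the same control samples.

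All 10 genes passed the filter. At 2 days against control, 4 of them rose (Id1, Id3, Bmp2 and Atoh8) and 1 fell (Bambi), where 23.7% of all tested genes were called, 13.1% higher and 10.6% lower. At 7 days against control 5 rose (Id1, Id2, Id3, Bmp2 and Smad6) and 2 fell (Bambi and Atoh8). The background there was 82.3%, with 40.5% higher and 41.8% lower, so 7 of 10 is no more than the share of all genes. From 2 to 7 days 5 rose and 3 fell, against a background of 79.1% (39.2% higher and 39.9% lower). The median log2FC of the 10 genes was 0.69 at 2 days and 0.43 at 7 days against control, beside medians of 0.00 and −0.03 over all tested genes.

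**Figure D1:**
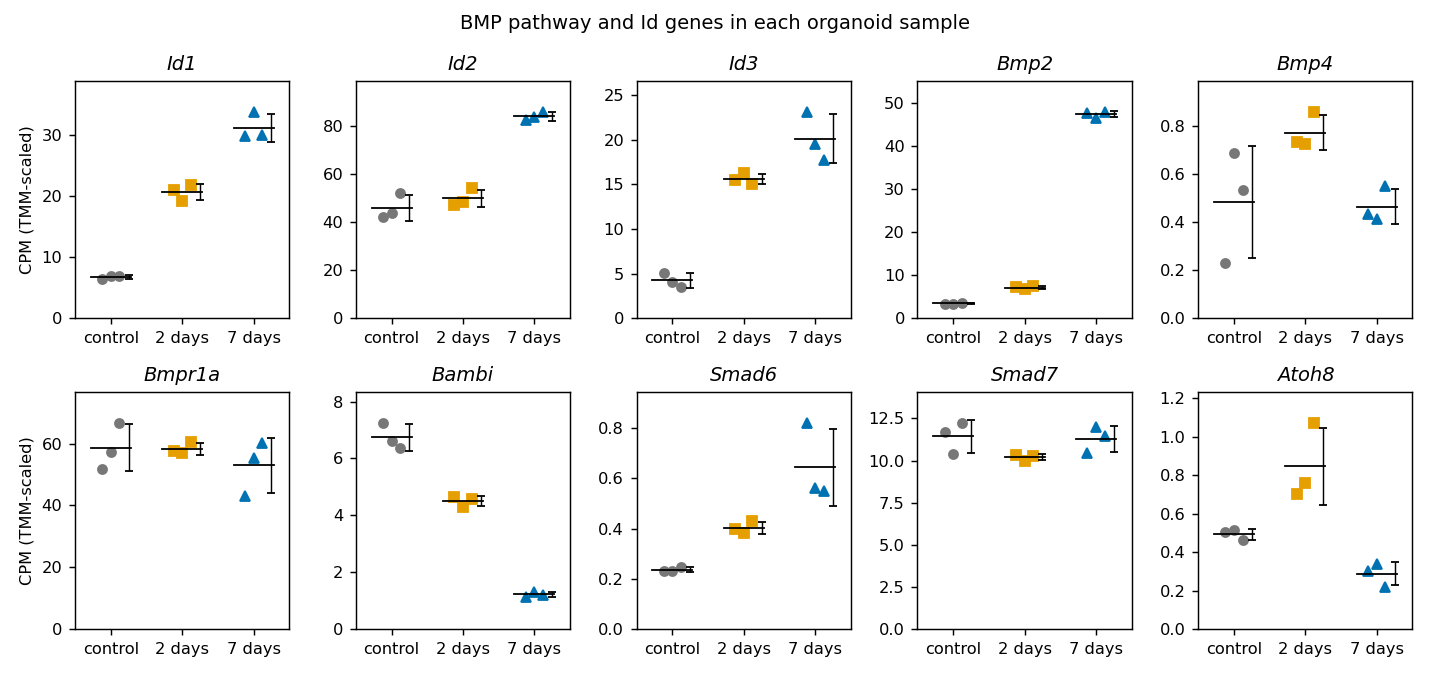
Level of each of the 10 genes in TMM-scaled CPM (linear axes from 0, a different range in each panel) by group, with each point 1 sample, the horizontal line the mean and the bar at its side the SD (n = 3). Bmp2 lies between 46.6 and 48.0 CPM in the 7-day samples and at 7.40 CPM or less in all others, Bambi runs the opposite way, and Atoh8 is highest at 2 days.

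The ligand gene Bmp2 showed the largest rise of the 10 genes at 7 days. Bmp2 (ENSMUSG00000027358, GRCm38 chromosome 2, 133552159 to 133562885, plus strand) encodes a BMP ligand made by differentiated gut epithelium. It stood at 3.40, 3.30 and 3.62 CPM in controls, 7.17, 6.82 and 7.40 CPM in the 2-day samples, and 47.6, 46.6 and 48.0 CPM in the 7-day samples. Each group lay above the group before it with no overlap, and the SD was at most 0.684 CPM. After 2 days Bmp2 had risen 2.07-fold (log2FC 1.05 ± 0.10, edgeR adjusted p = 1.7e-06), and after 7 days 13.8-fold (3.79 ± 0.09, edgeR adjusted p = 1.8e-14). Between 7 and 2 days alone it was 6.64-fold (edgeR adjusted p = 4.2e-13), so most of the increase came after the second day. In bulk samples, more cells that make Bmp2 and more Bmp2 RNA per cell cannot be told apart.

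Bmp4 did not follow Bmp2. Bmp4 (ENSMUSG00000021835, GRCm38 chromosome 14, 46383520 to 46390669, minus strand), a ligand that gut mesenchyme is known to produce, had only 6, 24 and 15 counts in controls, 24, 21 and 28 at 2 days, and 10, 11 and 15 at 7 days. These correspond to 0.484 ± 0.232, 0.774 ± 0.0743 and 0.465 ± 0.0740 CPM, and control and 7-day samples overlapped. It was not called against control at 2 days (log2FC 0.62 ± 0.30, 95% interval −0.02 to 1.26) or at 7 days (−0.11 ± 0.35, −0.84 to 0.63). Its call as lower at 7 days than at 2 days (log2FC −0.73, edgeR adjusted p = 0.046) was lost without any single 2-day sample, without control replicate 3, and without 7-day replicate 1 or 2 (0.051 to 0.13 for the edgeR adjusted p). That call was also lost with DESeq2 size factors (edgeR adjusted p = 0.057), limma-voom (adjusted p = 0.061) and the DESeq2 Wald test (adjusted p = 0.16). Genes on the opposite strand overlap Bmp4, and the library kit does not mark strand, so their reads cannot be told apart. Within a library, Bmp2 counts per kilobase were 4.94 times those of Bmp4 in controls, 5.84 times at 2 days and 65.0 times at 7 days (geometric means).

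The mesenchymal markers give the values to set beside Bmp4. Their summed level was 33.9 to 40.7 CPM in controls, 37.0 to 47.3 CPM at 2 days and 27.8 to 39.2 CPM at 7 days, nearly all from Acta2 and Myh11, genes of the contractile apparatus. The other 10 mesenchymal markers had at most 0.734 CPM in any sample, a level reached by Col1a2. Col1a2 averaged 0.568, 0.212 and 0.114 CPM in control, 2-day and 7-day samples, and Pdgfrb, which ran the other way, 0.00957, 0.0728 and 0.504 CPM. The summed immune markers were 1.32 to 1.78, 1.68 to 2.06 and 3.92 to 5.84 CPM, with Cd68 and Csf1r higher at 7 days, and their part in the rise of Bmp2 was not tested. Summed endothelial markers were 8.98 to 10.4, 7.44 to 8.36 and 6.38 to 7.06 CPM.

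The type I receptor gene kept a level within the spread of its samples. Bmpr1a (ENSMUSG00000021796, GRCm38 chromosome 14, 34410734 to 34503341, minus strand) encodes the main type I receptor for BMP2 and BMP4. It had 51.9, 57.3 and 66.8 CPM in controls, 57.5, 57.1 and 60.6 CPM in 2-day samples, and 43.1, 55.4 and 60.2 CPM in 7-day samples. The 3 groups overlapped, and 7-day replicate 1 was the lowest of all samples. The log2FC was −0.01 ± 0.11 at 2 days (95% interval −0.25 to 0.24) and −0.15 ± 0.11 at 7 days (−0.39 to 0.10), neither called. With the libraries scaled by total count alone, which lowers the median of all genes at 7 days by 0.40 on the log2 scale, it would be called lower at 7 days (log2FC −0.55, edgeR adjusted p = 0.0031). An antisense gene overlaps Bmpr1a and shares the same limit on strand.

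Bambi fell at both times. Bambi (ENSMUSG00000024232, GRCm38 chromosome 18, 3507923 to 3516404, plus strand) encodes a membrane protein that resembles a type I receptor but lacks the kinase, and it is known to dampen BMP and TGF-beta signalling. It is also known as a target of both BMP and Wnt signalling. Controls had 7.26, 6.60 and 6.36 CPM, 2-day samples 4.65, 4.29 and 4.57 CPM and 7-day samples 1.13, 1.31 and 1.21 CPM. Every sample was below all those of the group before. After 2 days Bambi had fallen 1.49-fold (log2FC −0.58 ± 0.11, edgeR adjusted p = 0.0017), and after 7 days 5.50-fold (−2.46 ± 0.14, edgeR adjusted p = 2.8e-10), with a 3.69-fold fall between 7 and 2 days (edgeR adjusted p = 1.3e-08).

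The inhibitory Smad genes parted. Smad6 (ENSMUSG00000036867, GRCm38 chromosome 9, 63953076 to 64022059, minus strand) encodes the inhibitor that acts mainly on the BMP branch. It had 6, 8 and 7 counts in controls, 13, 11 and 14 at 2 days, and 19, 15 and 15 at 7 days, which is 0.237 ± 0.0104, 0.403 ± 0.0248 and 0.645 ± 0.154 CPM. The groups did not overlap on the CPM scale, yet the whole rise rests on at most 19 counts a sample. The 2-day difference was not called (log2FC 0.76 ± 0.32, 95% interval 0.07 to 1.45, edgeR adjusted p = 0.13), and the 7-day rise was called at 2.67-fold (1.42 ± 0.30, edgeR adjusted p = 0.00052). Its call between 7 and 2 days (edgeR adjusted p = 0.044) did not survive leaving out any single 2-day sample or 7-day replicate 1 (0.059 to 0.22 for the edgeR adjusted p). That call was also lost with total-count and upper-quartile scaling (edgeR adjusted p = 0.47 and 0.1). No filter (edgeR adjusted p = 0.11), the fit of the 2 groups alone (edgeR adjusted p = 0.062) and the DESeq2 Wald test (adjusted p = 0.17) removed it too.

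Smad7 (ENSMUSG00000025880, GRCm38 chromosome 18, 75367529 to 75395935, plus strand), which restrains both the BMP and TGF-beta branches, stood at 11.7, 10.4 and 12.3 CPM in controls, 10.3, 10 and 10.3 CPM in 2-day samples, and 10.5, 11.98 and 11.4 CPM in 7-day samples. Control and 7-day samples overlapped throughout, and the 2-day samples were just below all others. No difference was called, with a log2FC of −0.16 ± 0.10 at 2 days (95% interval −0.37 to 0.05) and −0.01 ± 0.10 at 7 days (−0.23 to 0.20). Scaling by total count alone gave −0.41 at 7 days (edgeR adjusted p = 0.0033). The within-library ratio of Smad6 to Smad7, on counts per kilobase, was 0.0292 in controls, 0.0556 at 2 days and 0.0793 at 7 days.

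**Figure D2:**
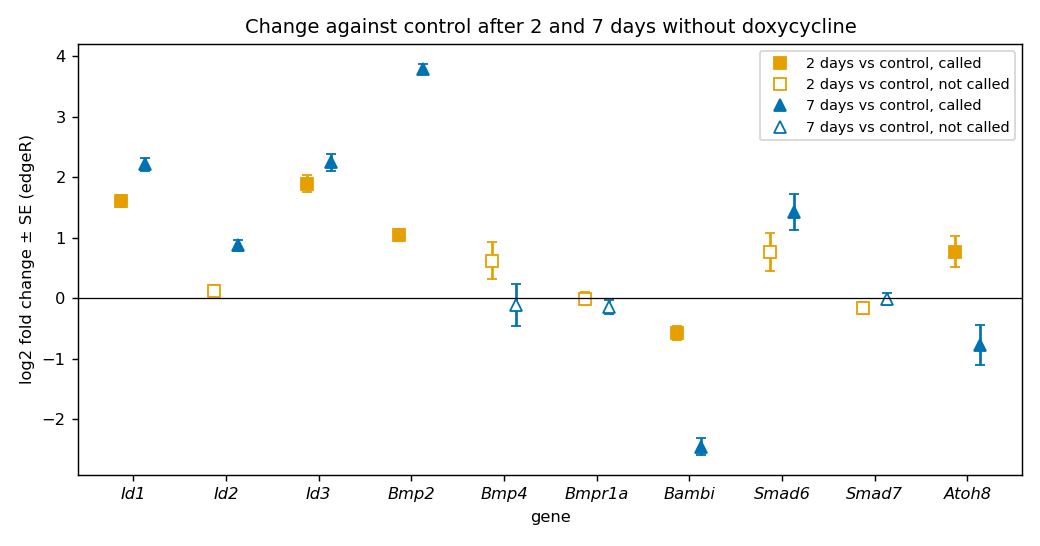
Change of each of the 10 genes against control on the log2 scale, squares for 2 days and triangles for 7 days, with bars for the SE; filled symbols were called by edgeR and open ones were not. Id1 and Id3 lie between 1.61 and 2.25 at both times, Bmp2 and Bambi are farther from 0 at 7 days than at 2 days, and Atoh8 changes sign.

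Id1 and Id3 had made most of their rise by 2 days, and Id2 was called against control at 7 days and not at 2 days. Id1 (ENSMUSG00000042745, GRCm38 chromosome 2, 152736251 to 152737410, plus strand) had 6.41, 6.89 and 6.92 CPM in controls, 20.9, 19.2 and 21.8 CPM in 2-day samples, and 29.8, 33.8 and 30.0 CPM in 7-day samples. There was no overlap between any of the groups. After 2 days Id1 had risen 3.06-fold (log2FC 1.61 ± 0.10, edgeR adjusted p = 1.4e-08), and after 7 days 4.62-fold (2.21 ± 0.10, edgeR adjusted p = 1.2e-11). Between 7 and 2 days it was 1.51-fold (edgeR adjusted p = 1.7e-05), and this last step was not called with the libraries scaled by total count alone (log2FC 0.18, edgeR adjusted p = 0.097).

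Id3 (ENSMUSG00000007872, GRCm38 chromosome 4, 136143497 to 136145755, plus strand) moved like Id1. Its levels were 5.10, 4.08 and 3.52 CPM in controls, 15.5, 16.3 and 15.1 CPM in 2-day samples, and 23.1, 19.5 and 17.7 CPM in 7-day samples. All 2-day and 7-day samples were above all controls, and the 7-day samples spread more than the others. After 2 days Id3 had risen 3.70-fold (log2FC 1.89 ± 0.14, edgeR adjusted p = 8.9e-08), and after 7 days 4.76-fold (2.25 ± 0.14, edgeR adjusted p = 4.5e-10). The further 1.29-fold rise between 7 and 2 days (log2FC 0.36 ± 0.12, edgeR adjusted p = 0.011) was lost without 7-day replicate 1 (edgeR adjusted p = 0.055) and with upper-quartile scaling, and it turned to −0.06 with scaling by total count.

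Id2 (ENSMUSG00000020644, GRCm38 chromosome 12, 25093799 to 25097140, minus strand) was per kilobase the most abundant of the 3 in every group. It had 42.0, 44.0 and 52.2 CPM in controls, 47.3, 48.5 and 54.2 CPM in 2-day samples, and 82.5, 83.9 and 86.0 CPM in 7-day samples. The 2-day samples overlapped the controls, and the 7-day samples stood clear of both. The 2-day difference was not called (log2FC 0.12 ± 0.09, 95% interval −0.07 to 0.31), whereas Id2 rose 1.83-fold at 7 days against control (0.87 ± 0.09, edgeR adjusted p = 2.7e-07) and 1.68-fold between 7 and 2 days (0.75 ± 0.09, edgeR adjusted p = 1.6e-06).

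Ratios of 2 genes within a library do not depend on how the libraries are scaled. Counts per kilobase of Id1 relative to Id2 had log2 ratios of −1.64, −1.60 and −1.84 in controls, −0.11, −0.26 and −0.24 at 2 days, and −0.40, −0.24 and −0.45 at 7 days. On the linear scale Id1 was 0.309, 0.868 and 0.777 times Id2. Both later groups were clear of the controls, while the 7-day and 2-day samples overlapped. Id3 relative to Id2 was 0.124, 0.425 and 0.323 times, and Id3 relative to Id1 was 0.402, 0.490 and 0.416 times with overlap among all groups. The balance between Id1 and Id3 thus differed less between groups than their balance with Id2. Bmp2 per kilobase was 0.105, 0.218 and 1.62 times Bmpr1a.

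**Figure D3:**
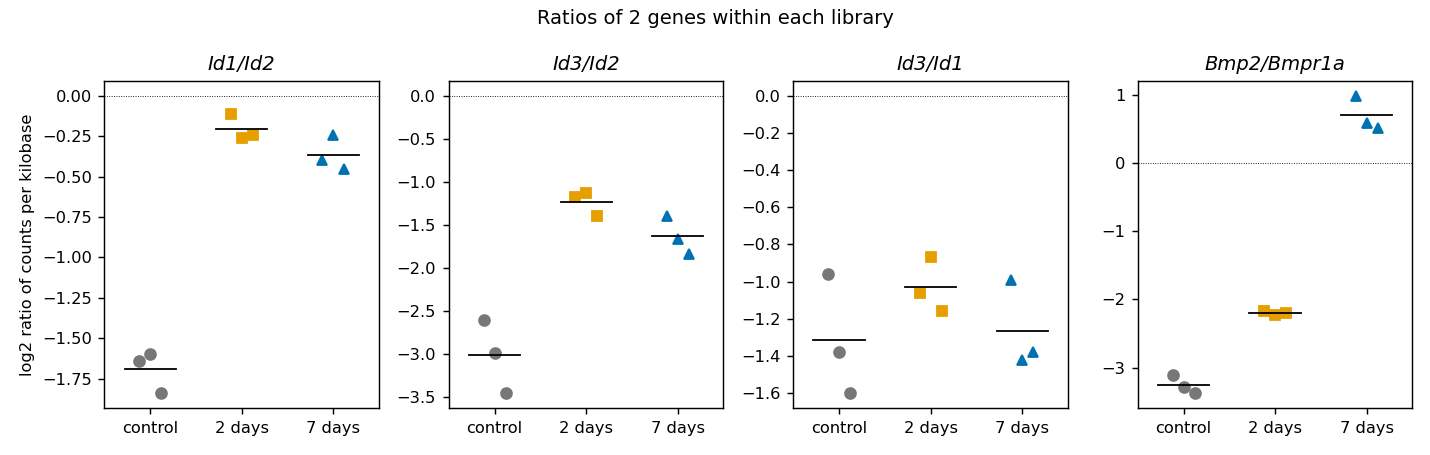
Log2 ratio of the counts per kilobase of 2 genes in each sample, by group, with the mean as a line and 0 (equal) dotted. Id1/Id2 is between −1.84 and −1.60 in controls and between −0.45 and −0.11 in the other samples, Id3/Id1 overlaps between groups, and Bmp2/Bmpr1a passes 0 only at 7 days.

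Promoter sequences of RefSeq (GRCm38.p6, 250 bases before to 50 after the start site) were matched for 6 of the 10 genes, and those of Id3 and Id2 are given because these genes differed in timing. Searched on both strands were GGCGCC, the GC-rich motif of Smad1 and Smad5, GTCTG, a motif bound by Smad proteins, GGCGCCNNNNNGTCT, the BMP response element that joins such motifs, and CTTTGA, the motif of the Wnt effectors TCF and LEF. Capitals mark the matches, and a stretch such as CAGAC is GTCTG read on the other strand.
Id3, chr4:136143572-136143871, plus strand: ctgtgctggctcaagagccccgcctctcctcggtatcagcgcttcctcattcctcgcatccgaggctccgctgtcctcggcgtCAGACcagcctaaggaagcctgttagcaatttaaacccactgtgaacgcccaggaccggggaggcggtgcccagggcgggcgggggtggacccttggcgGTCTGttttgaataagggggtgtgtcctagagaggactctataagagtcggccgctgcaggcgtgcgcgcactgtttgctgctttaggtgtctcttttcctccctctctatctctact
Id2, chr12:25096043-25096342, minus strand: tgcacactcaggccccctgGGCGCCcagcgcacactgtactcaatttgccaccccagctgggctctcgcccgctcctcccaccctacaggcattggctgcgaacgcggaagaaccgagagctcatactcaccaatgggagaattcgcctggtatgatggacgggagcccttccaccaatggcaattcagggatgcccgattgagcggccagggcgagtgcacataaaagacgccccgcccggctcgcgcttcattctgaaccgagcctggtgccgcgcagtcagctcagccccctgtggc

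The Id3 window held GTCTG at positions −167 and −68 from the start site and no GGCGCC, while the Id2 window held a single GGCGCC at −231 and no GTCTG. Across all 32851 promoter windows, GTCTG was found in 49.6%, GGCGCC in 11.9%, CTTTGA in 16.0% and the joined element in 0.0731%. Bmpr1a, which was not called at either time, also had GGCGCC, at −198. The windows of Bmp4, Smad6 and Atoh8 held none of the 4 motifs, and neither Id window held CTTTGA or the joined element. The GC content was 60.0% for Id3 and 63.3% for Id2, beside a median of 52.7% over all windows. Id1 had no matched window, and bases outside the windows were not searched. Any link between the motifs and the timing was not tested.

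Atoh8 differed in direction between the times. Atoh8 (ENSMUSG00000037621, GRCm38 chromosome 6, 72206177 to 72235577, minus strand) encodes a basic helix-loop-helix factor known as a BMP target in liver. It had 13, 18 and 13 counts in controls, 23, 22 and 35 at 2 days, and 7, 9 and 6 at 7 days, which is 0.493 ± 0.0285, 0.847 ± 0.199 and 0.287 ± 0.0606 CPM. The 2-day samples were above, and the 7-day samples below, all controls. Atoh8 was called higher at 2 days (log2FC 0.77 ± 0.25, edgeR adjusted p = 0.037) and lower at 7 days (−0.78 ± 0.33, edgeR adjusted p = 0.040). The 2-day call was lost without any single control, 2-day replicate 3 or 7-day replicate 2 (0.05 to 0.2 for the edgeR adjusted p), and the 7-day call without any single control or 7-day replicate 1 or 3 (0.057 to 0.15). Against control the 2-day call was also lost with no filter (edgeR adjusted p = 0.058), limma-voom (adjusted p = 0.054) and the DESeq2 Wald test (adjusted p = 0.18), and the 7-day call with no filter (edgeR adjusted p = 0.074) and the Wald test (adjusted p = 0.18). The 7-day samples were 2.94-fold below the 2-day samples (log2FC −1.56 ± 0.30, edgeR adjusted p = 0.00019), and this call held in each alternative in which Atoh8 was tested.

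Compared per kilobase of exon, the order of the 10 genes also shifted. In controls Id2 led at 18.9 CPM per kilobase, followed by Bmpr1a at 9.24 and Id1 at 5.81, with Smad7 at 2.53, Id3 at 2.36, Bambi at 1.33 and Bmp2 at 0.968. Smad7 and Id3 differed there by less than the SD of Id3. At 2 days Id1 (17.8 CPM per kilobase) stood next to Id2 (20.5), ahead of Bmpr1a (9.19) and Id3 (8.71). At 7 days Id2 (34.5) and Id1 (26.9) were followed by Bmp2 (13.3) and Id3 (11.2), both above Bmpr1a (8.33). Bmp4, Atoh8 and Smad6 had at most 0.344 CPM per kilobase in any group.

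The other genes of the pathway came from lists arranged by role, and 54 of them were tested beside the 10. At 2 days 9 of the 54 rose and 8 fell, beside 13.1% and 10.6% of all tested genes, with a median log2FC of 0.04. At 7 days 24 rose and 14 fell, beside 40.5% and 41.8% of all tested genes, with a median of 0.13. Over the whole pathway, the 10 genes included, 29 rose and 16 fell at 7 days, and scaling by total count turned this balance to 20 higher and 33 lower. That scaling also lowered the share of higher genes among all genes called, from 49.2% to 34.8%. Of the 7 BMP ligand genes tested, Bmp2 and Bmp3 rose and Bmp7 fell at 2 days. At 7 days the same pair rose, while Bmp7 and Bmp8b fell. Bmp3, whose product opposes BMP signalling, averaged 1.91 ± 0.214, 8.21 ± 0.401 and 18.8 ± 2.92 CPM, a 9.81-fold rise at 7 days (log2FC 3.29 ± 0.14, edgeR adjusted p = 9.7e-12). Bmp7 averaged 6.45 ± 0.728, 3.00 ± 0.541 and 1.00 ± 0.158 CPM (7 days, log2FC −2.69 ± 0.19, edgeR adjusted p = 2.6e-09). Bmp8b averaged 205 ± 15.0, 204 ± 18.7 and 153 ± 16.6 CPM, but Bmp8a and Bmp8b are close copies whose counts are uncertain.

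Extracellular antagonists went both ways. Of 16 listed, 6 were tested and 4, including Nog and Grem1, had 0 counts in all samples. Fst, encoding follistatin, which binds activins and some BMPs, fell to 8.81 ± 0.408 CPM at 2 days and 1.46 ± 0.322 CPM at 7 days, against 20.7 ± 1.68 CPM in controls (7 days, log2FC −3.82 ± 0.14, edgeR adjusted p = 1.6e-12). Nbl1, encoding an antagonist of the DAN family, rose to 33.7 ± 0.928 CPM at 2 days and 135 ± 20.7 CPM at 7 days, against 21.8 ± 2.69 CPM in controls (7 days, 2.63 ± 0.12, edgeR adjusted p = 1.3e-11). Twsg1 (28.6, 30.5 and 26.5 CPM) was not called at either time, but scaling by total count called it lower at 7 days (log2FC −0.51, edgeR adjusted p = 0.0041). The ligand-processing protease genes Bmp1, Furin and Pcsk6 all rose at 7 days, by log2FC 0.72, 0.55 and 0.57, and Furin alone of the 4 tested rose at 2 days (0.31, edgeR adjusted p = 0.012). Of all tested genes 40.5% were called higher at 7 days and 13.1% at 2 days. Scaling by total count removed the 7-day call of Furin (log2FC 0.15, edgeR adjusted p = 0.066).

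Among receptor genes none of the 5 tested was called at 2 days, and at 7 days Acvr2a and Bmpr2, both type II receptor genes, rose. Of all tested genes 23.7% were called at 2 days, and 40.5% were called higher at 7 days. Acvr2a averaged 34.2 ± 5.32 CPM at 7 days and 15.1 ± 1.33 CPM in controls (log2FC 1.18 ± 0.11, edgeR adjusted p = 1.0e-07). Bmpr2 averaged 27.99 ± 3.44 CPM at 7 days and 17.5 ± 0.815 CPM in controls (0.68 ± 0.15, edgeR adjusted p = 0.00064), a call lost with scaling by total count (log2FC 0.28, edgeR adjusted p = 0.13). The receptor-activated Smads separated. Smad1 rose to 39.0 ± 2.97 CPM at 2 days and 57.3 ± 2.18 CPM at 7 days, against 29.0 ± 1.10 CPM in controls (7 days, 0.98 ± 0.08, edgeR adjusted p = 1.9e-08). Smad5 was at 24.8 ± 1.67 CPM at 2 days, not called, and fell to 11.4 ± 0.882 CPM at 7 days, against 26.9 ± 1.04 CPM in controls (7 days, −1.24 ± 0.09, edgeR adjusted p = 6.2e-09). Smad4, the shared partner, stood at 100 ± 4.93, 101 ± 4.18 and 104 ± 3.81 CPM and was not called, although scaling by total count called it lower at 7 days (log2FC −0.35, edgeR adjusted p = 0.00046). Smad9 had 0 counts throughout.

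**Figure D4:**
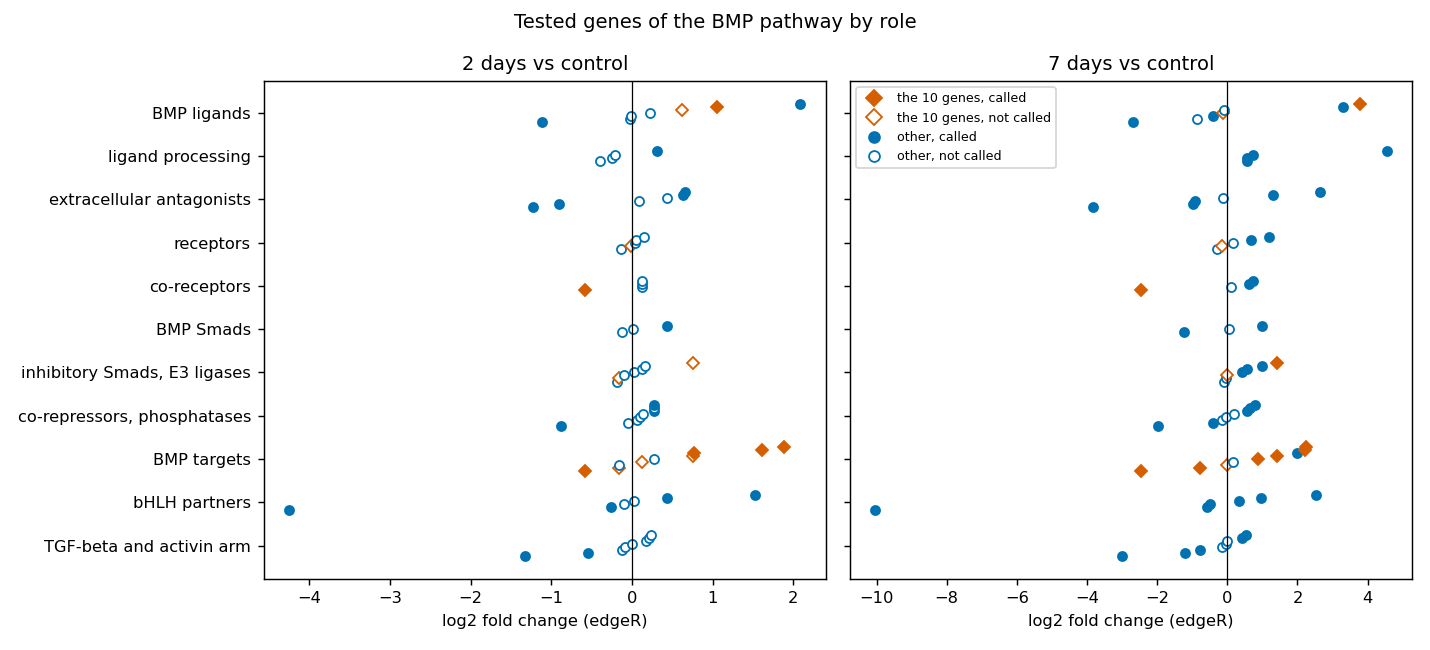
Log2 fold change against control of every tested pathway gene, grouped by role (a gene can stand in more than 1 role), at 2 days (left) and 7 days (right, with a wider axis); diamonds are the 10 genes, circles the others, and filled symbols were called by edgeR. The leftmost circle is Ascl2, a crypt stem cell factor with 1 count over the 7-day samples, so its fitted change there depends on the prior count; ligands and antagonists spread to both sides of 0.

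E3 ligases that target receptors or Smads included Nedd4l, up to 168 ± 8.24 CPM at 7 days against 85.3 ± 4.23 CPM in controls (log2FC 0.98 ± 0.08, edgeR adjusted p = 1.5e-08). Smurf2 also rose (0.42), a call lost with scaling by total count (log2FC 0.02), while Smurf1 and Rnf111 were not called. Total-count scaling called both lower at 7 days (log2FC −0.48 and −0.43, edgeR adjusted p = 4.6e-05 and 0.0012), and upper-quartile factors called Smurf1 lower (−0.18, edgeR adjusted p = 0.049). Of the E proteins that Id proteins bind, Tcf3 fell at 7 days to 50.7 ± 3.73 CPM against 76.0 ± 3.30 CPM in controls (log2FC −0.58 ± 0.08, edgeR adjusted p = 5.6e-06). Tcf12 fell to 78.3 ± 6.20 CPM against 111 ± 10.8 CPM (−0.50 ± 0.09, edgeR adjusted p = 9.2e-05). Tcf4 rose to 10.8 ± 0.927 CPM against 5.55 ± 0.360 CPM (0.95 ± 0.11, edgeR adjusted p = 8.2e-07). In the TGF-beta and activin arm 8 genes were tested, of which 2 fell at 2 days, and 2 rose and 3 fell at 7 days. Of all tested genes 23.7% and 82.3% were called at these times. The receptor gene Tgfbr2 (722 ± 5.77, 682 ± 52.7 and 646 ± 25.8 CPM) and Smad2 were not called. Tgfbr2 was however called lower at 7 days with total-count scaling (log2FC −0.56, edgeR adjusted p = 6.1e-06), with upper-quartile factors (−0.26, edgeR adjusted p = 0.0051) and in the fit of the 2 groups alone (−0.19, edgeR adjusted p = 0.026). Smad2 was called lower with total-count scaling (log2FC −0.44, edgeR adjusted p = 0.00029). Smad3 was called higher at 7 days (log2FC 0.41), which scaling by total count removed (log2FC 0.01). Acvr1b, an activin receptor gene, averaged 46.9 ± 1.4, 32.2 ± 1.5 and 67.9 ± 4.2 CPM and differed in direction between the times. It was called lower at 2 days (log2FC −0.54 ± 0.08, edgeR adjusted p = 9.8e-05) and higher at 7 days (0.53 ± 0.08, edgeR adjusted p = 1.0e-05). Total-count scaling removed its 7-day call (log2FC 0.13, edgeR adjusted p = 0.17).

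Likeness in pattern was measured as the distance between the pairs of log2FC, at 2 and at 7 days against control, over 10004 genes with at least 5 CPM in 1 group. It describes 3 group means and was not tested. Among the 10 genes Id1 and Id3 were nearest to each other apart from Bmpr1a and Smad7, at 0.28 and 0.20. For Id1 the nearest genes overall were Spdef (0.058), Fzd5 (0.115) and Zc3h12a (0.159), and for Id3 they were Fam20c (0.204), Id1 (0.278) and Spdef (0.333). Id2 was nearest to Gnai2, Btbd9 and Gclm, within 0.010. Bmp2 was nearest to Ifi27 (0.024), Inpp5j (0.087) and Nr5a2 (0.105), Bambi to Nt5dc2 (0.009), Pir (0.034) and Mcm5 (0.036), Smad6 to Pdgfb (0.013) and Atoh8 to Ankrd1 (0.035). A distance below the SE of a gene's own log2FC does not settle which gene is nearest. The SE at 2 and 7 days was 0.32 and 0.30 for Smad6, and 0.25 and 0.33 for Atoh8.

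The 7-day values of the smaller changes depended on the scaling of the libraries. The TMM factors were 0.785 to 0.874 at 7 days and 1.073 to 1.125 in the other groups. Scaling by total count alone moved the median of all genes by −0.42 on the log2 scale between 7 and 2 days, and upper-quartile factors moved it by −0.12. Of all genes called, 49.5% were higher at 7 than at 2 days with TMM and 31.8% with total-count scaling. For 7 days against control these shares were 49.2% and 34.8%. At 7 days against 2 days, Bmp2 and Id2 were called higher, and Bambi and Atoh8 lower, under all 5 scalings. At 7 days against control, Id1, Id2, Id3, Bmp2 and Smad6 were called higher and Bambi lower under all 5, while the lower call of Atoh8 was lost with DESeq2 size factors (log2FC −0.74, edgeR adjusted p = 0.051).

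**Figure D5:**
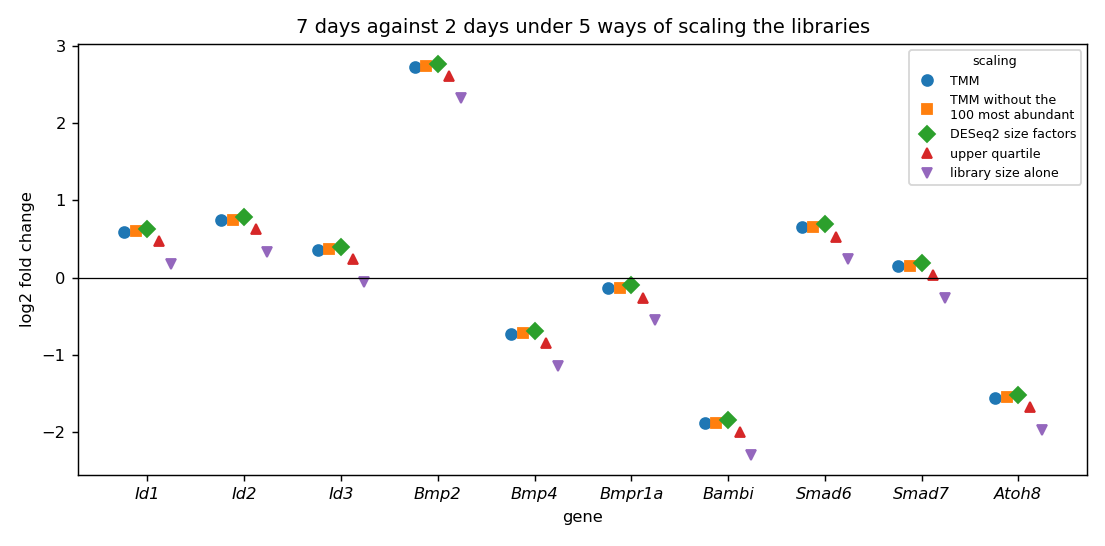
Log2 fold change of the 10 genes at 7 days against 2 days under 5 scalings of the libraries, a marker shape for each. Points below the TMM value for upper-quartile and total-count scaling show the shift of the whole table, with Id3 going to −0.06 and Smad7 to −0.27 under total-count scaling.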

How the data were processed

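RNA was measured in 9 organoid samples, 3 in each of 3 groups read from the sample titles. Poly(A) libraries were made with a kit that does not mark strand, per the labels' protocols. The authors deposited raw counts of reads for each gene; STAR 2.7.0e, featureCounts and DESeq2 with mm10/GRCm38 are named in the submitters' processing notes, and the sources used here do not give the annotation release or strand setting. Of 21253 gene IDs, 21236 matched GENCODE M21.

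Counts were filtered with filterByExpr (12535 genes kept), scaled by TMM and fitted in edgeR 4.0.16 (R 4.3.3) by glmQLFit on the group alone over all 9 samples, with two-sided glmQLFTest and Benjamini-Hochberg adjustment over all tested genes. The SE is the absolute log2FC over the square root of F, and it can be too small for few counts. CPM per kilobase uses the merged exon length. Counting noise did not account for the differences between any replicate pair (chi-square per degree of freedom of 4.24 to 38.3), so none was treated as a duplicate. The code was tested on simulated data. Alternatives were other scalings (DESeq2 1.42.0 size factors, total count, upper quartile, TMM without the 100 most abundant genes), filters, the DESeq2 Wald test, limma-voom (limma 3.58.1), 2-group fits, a replicate block and leaving out each sample.

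The 10 genes and the lists were chosen with earlier results of these data known. All 10 are named. Other pathway genes were eligible if they reached 5 CPM in a group, up to 4 per list by mean CPM. Of these, Neo1, Rgmb, Acvr1, Tbx3, Hes1, Ppm1a, Ctdsp1, Ctdsp2 and Ski were left out above. At 7 days Neo1 (log2FC 0.62), Hes1 (0.34), Ppm1a (0.78) and Ski (0.55) were called higher and the rest were not called. Total-count scaling removed the calls of Hes1 and Ski and called the rest lower, while DESeq2 size factors called Tbx3 and Ctdsp2 higher. At 2 days only Ski was called (0.27). The few named without meeting the rule (marker genes, Nog, Grem1, Smad9 and Ascl2) were added after values were seen.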

Additional observations from a re-analysis of the deposited data

Results flagged for a closer look

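Atoh8 was picked out because its change against control was called in opposite directions at the 2 times, and the difference between the times was itself called. It was higher at 2 days (log2FC 0.77) and lower at 7 days (−0.78), and the 7-day samples were below the 2-day samples by a log2FC of −1.56 (edgeR adjusted p = 0.00019; lower in 3 of 3 samples than every 2-day sample). The counts behind it were 6 to 35 per sample. Both calls against control were lost with no filter on low counts and with the DESeq2 Wald test, and the 2-day call also with limma-voom.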

How the results depend on the processing

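Scaling by total count gave 4 of the 10 genes and 33 pathway genes lower at 7 days against control (2 and 16 with TMM). Of all genes called there, 34.8% were higher with this scaling and 49.2% with TMM. For 7 days against 2 days total-count scaling gave 2 of the 10 higher and 5 lower (5 and 3 with TMM). It gave 13 pathway genes higher and 35 lower (30 and 18), where 31.8% of all genes called were higher (49.5% with TMM). It also put Id3 at −0.06 and Smad7 at −0.27 there, and Bmpr1a at 0.01 at 2 days (−0.01 with TMM). Upper-quartile factors gave 3 of the 10 higher at 7 against 2 days, and Bmpr1a at 0.01 at 2 days. A filter at a mean of 5 CPM left fewer genes to test and dropped Bambi, Atoh8, Bmp4 and Smad6. Every gene of the 10 called lower in the main fit was among those dropped. The count of 0 of the 10 lower in each comparison therefore shows no lost call. With this filter 4 pathway genes were lower at 2 days, 9 at 7 days and 10 at 7 against 2 days (9, 16 and 18 before). DESeq2 size factors, the DESeq2 Wald test and no filter each left 1 of the 10 lower at 7 days against control, Bambi. Smad7 there was 0.03 with DESeq2 size factors and 0.02 with the Wald test (−0.01 before), and Bmp4 was 0.03 with limma-voom (−0.11 before). Fitting only the 2 groups put Bmpr1a at 0 at 2 days.

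Leaving out 1 sample at a time gave 1 to 2 of the 10 lower at 7 days against control, the 1 when any control or 7-day replicate 1 or 3 was left out, and 3 to 5 higher at 7 against 2 days, the 3 without 7-day replicate 1. Bmpr1a at 2 days ranged over −0.08 to 0.09, Smad7 at 7 days over −0.09 to 0.04 and Bmp4 at 7 days over −0.40 to 0.26. Correlations of the deviations of same-numbered samples ran from −0.13 to 0.48, and those of differently numbered samples from −0.44 to 0.17. The highest were those of control and 7-day replicate 3 (0.48) and of control and 7-day replicate 1 (0.33). The main fit did not pair samples by number. A replicate block called 4039 genes at 2 days against control (2969 before). With the replicate block 1 of the 10 was lower at 7 days against control, Bmpr1a at 2 days was 0, and among the other genes named it added lower calls for Tgfbr2 at 7 days (edgeR adjusted p = 0.032), for Smurf1 (0.039), Bmp1 (0.029) and Pcsk6 (0.017) at 2 days, and for Twsg1 at 7 against 2 days (0.027). Few counts limit Bmp4, Smad6 and Atoh8.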
